A study of Mus musculus with 9 samples.

Results

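Trem2, Tyrobp, Fcer1g, Fcgr3, Fcgr1, Fcgr2b, Csf1r and Syk, a receptor, adapter and kinase set of microglia and macrophages, were picked by symbol and make up 8 of the 27998 genes counted in sorted immune cells of the mouse retina. All mice were female Arr1-/- animals, 2 to 5 months of age, which lack visual arrestin (the gene Sag) and lose their photoreceptors in light. The day 0 controls carried the same knockout, and no group of this experiment had intact arrestin. Before the experiment all mice lived in darkness, and the day 7 and day 20 groups then spent 7 or 20 days in continuous light of about 200 lux, while the day 0 group had none. Live CD45+ CD11b+ cells were sorted from the retinas, and their RNA was counted near its 3′ end as unique molecular identifiers (UMIs) on the 10x Genomics platform. Each day had 3 libraries. The study used 8 retinas of 4 mice per day, the labels do not tie a library to a mouse, and every p-value here therefore measures only the spread between libraries, which may be technical. The sample titles give the times in hours and the treatment labels in days, and days are used here.

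Trem2 is a lipid-sensing surface receptor that cannot signal alone and uses the adapter Tyrobp, also known as DAP12. The activating antibody receptors Fcgr1 and Fcgr3 use the related adapter Fcer1g, the common gamma chain of Fc receptors. Both adapters carry an activation motif called ITAM, which recruits the kinase Syk when phosphorylated, whereas Fcgr2b carries an inhibitory motif, ITIM, in its own tail and dampens activating Fc receptors. Csf1r is the receptor kinase for the growth factors Csf1 and Il34 and sustains microglia, the resident macrophages of the brain and retina.

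In the mouse build GRCm38, Fcgr2b (chr1:170958617-170976547), Fcgr3 (chr1:171051174-171064935) and Fcer1g (chr1:171229572-171234365) lie near each other on the minus strand of chromosome 1. Trem2 (chr17:48346401-48354147), Tyrobp (chr7:30413760-30417585) and Syk (chr13:52583173-52648792) are on the plus strand, and Fcgr1 (chr3:96282909-96293969) is on the minus strand. The 3′ ends of the Fc receptor transcripts, where the counted reads begin, were compared because near-identical copies could share reads. Of the different 60-base words in the last 500 bases of Fcgr2b transcripts, 13 of 1447 also occurred in an Fcgr3 transcript, and 0 of the 902 words of Fcgr3 occurred in an Fcgr2b transcript. An antisense gene overlapping Fcgr2b, Gm38204, had 0 UMIs in the cells analysed, and Hmgxb3, which overlaps Csf1r on the other strand, had 10. The strand setting of the counting is not given in the sources used here.

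The myeloid factor PU.1 binds sites around the letters GAGGAA, and promoters were searched for these letters on both strands. Sequences from 250 bases before each RefSeq start (GRCm38.p6) were searched for 6 of the 8 genes, and those of Tyrobp and Csf1r were not. The letters occurred in those of Trem2, Fcgr3 and Fcgr1 and not in those of Fcer1g, Fcgr2b and Syk, compared with 7639 of 32851 promoters, or 23.3%, over all genes. The 60 bases before the start are shown 5′ to 3′ on the gene's own strand for the 3 genes with a match, with the match in capitals; it reads TTCCTC because GAGGAA is on the opposite strand. The RefSeq starts of Fcgr3, Fcer1g, Fcgr2b and Syk lie inside the gene spans given above, and an annotated exon overlaps the last 60 bases before the start of the latter 3. A match is a run of letters, and binding was not measured.
Trem2, chr17:48346341-48346400, plus strand: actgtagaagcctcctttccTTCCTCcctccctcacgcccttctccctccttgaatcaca
Fcgr3, chr1:171059404-171059463, minus strand: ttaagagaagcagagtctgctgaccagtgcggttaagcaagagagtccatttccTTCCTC
Fcgr1, chr3:96293970-96294029, minus strand: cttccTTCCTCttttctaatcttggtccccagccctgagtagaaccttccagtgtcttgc

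The libraries shared cell barcodes. The 5022 barcode entries held 1365 different barcodes, of which 612 occurred in more than 1 library and 270 in all 9, so each barcode was kept only where its UMI total was highest. Of the 851 barcodes that passed quality control, 728 had more UMIs of a myeloid list than of any other cell type list and were analysed (251, 280 and 197 at days 0, 7 and 20). The 123 others were mainly rod and cone (84) and Müller glia or astrocyte (23) barcodes. Library sums ran from 20443 to 265207 UMIs, and day 7 replicate 3 held 17 cells. The defining markers of the sort were sparse as transcripts. A UMI of Ptprc (CD45) was found in 19.9%, 9.64% and 9.64% of cells at days 0, 7 and 20, and a UMI of Itgam (CD11b) in 31.9%, 10.0% and 17.8%.

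Csf1r and the inhibitory receptor Fcgr2b were lower at day 7 than at day 0, and Csf1r was higher again at day 20 than at day 7. With a library left out, the processing changed or only a class of cells summed, the Fcgr2b call was lost in 19 of 22 fits. The Csf1r call was lost in 3 of 24 such fits at day 7 against day 0 and in 12 of 24 at day 20 against day 7. The 3 were the deposited counts and the cells rich or poor in microglial transcripts, which are defined below. None of the 7 genes tested was called higher at day 7 or day 20 than at day 0, with the highest estimates for Fcgr1 (0.64 and 0.58 on the log2 scale). Trem2 was lower in every day 7 library than in any other library but did not pass the test, and the adapters Tyrobp and Fcer1g had overlapping ranges at all 3 days when all cells were summed. Levels were counts of a library's summed cells scaled to 1000000 UMIs (CPM), tested with edgeR's quasi-likelihood test over all genes. By this test 2 of the 7 genes were called at day 7 against day 0, both lower, beside 26.9% of all 1333 genes tested, or 16.6% called lower. The count at day 20 against day 0 was 0 of 7, where DESeq2 also called 0, beside 3.23% of all genes called by edgeR. There 0 of the 7 had an unadjusted edgeR p under 0.05, compared with 223 of all 1333 genes. In the comparison of day 20 with day 7 the count called was 1 of 7, higher, beside 5.03% of all genes, or 3.68% called higher. The median log2 difference of the 7 genes at day 7 was −0.30, compared with −0.06 over all genes. In such sums, fewer cells with a transcript and less of it per cell cannot be told apart.

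**Figure D1:**
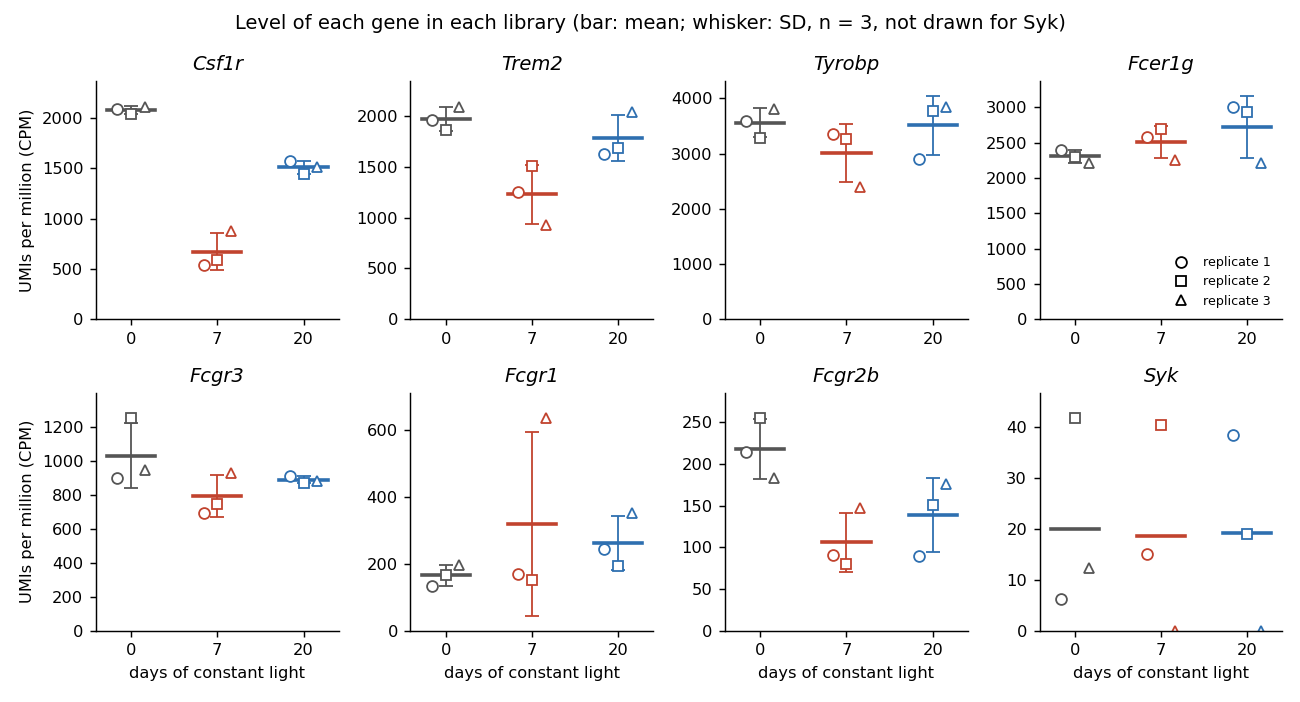
Level of each gene in CPM (y axis, linear from 0) in the 3 libraries of day 0, day 7 and day 20 (points), with the mean and SD of each day. Csf1r is at 2041 to 2117 CPM at day 0, 543 to 880 at day 7 and 1448 to 1576 at day 20, whereas the days overlap for Tyrobp and Fcer1g.

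Csf1r was at 2093, 2041 and 2117 CPM in the 3 day 0 libraries. It was at 543, 585 and 880 CPM at day 7 and at 1576, 1448 and 1510 CPM at day 20. The 3 days did not overlap, with day 0 highest and day 7 lowest. The mean of day 0 was 2083 ± 38.8 CPM (SD, n = 3), compared with 670 ± 184 CPM for day 7 and 1512 ± 64.0 CPM for day 20. The log2 difference between day 7 and day 0 was −1.59 (SE 0.25, 95% interval −2.14 to −1.05, edgeR adjusted p = 0.000311), and that between day 20 and day 7 was 1.11 (SE 0.26, 0.56 to 1.65, adjusted p = 0.0230). The difference between day 20 and day 0 did not pass the test (−0.49, SE 0.24, −0.99 to 0.02, adjusted p = 0.312). With the counts as deposited, in which a barcode can count in several libraries, the day 7 difference was −0.56 (adjusted p = 0.0990) and the difference between day 20 and day 7 was 0.32 (adjusted p = 0.798). The day 7 difference was called without any of the 9 libraries in turn, from −1.65 to −1.47, while that between day 20 and day 7 missed the threshold without day 0 replicate 1, day 7 replicate 1, day 7 replicate 2 or day 20 replicate 1, with adjusted p from 0.0527 to 0.194.

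Other transcripts moved with the days in the same libraries. A list of 8 microglial transcripts summed to 6665 to 7049 CPM at day 0, 1342 to 1419 at day 7 and 2996 to 4458 at day 20, and 4 MHC class II genes of antigen presentation to 620 to 2325, 10321 to 40405 and 5932 to 14904. All 18 immediate-early and dissociation genes were detected and summed to 38320 to 43811, 3118 to 6555 and 9088 to 23850 CPM, respectively. All 3 lists thus had their extreme means at day 0 and day 7, with day 20 between them. In cells with under 2% of their UMIs in the immediate-early list, Csf1r differed by −1.56 between day 7 and day 0 (SE 0.28, adjusted p = 0.00184). In MHC class II-low cells it differed by −1.65 (adjusted p = 7.7e-05). In cells with at least 0.25% of their UMIs in the microglial list, Csf1r differed by −0.34 (SE 0.25, edgeR adjusted p = 0.445). In cells below this share it differed by −1.09 (SE 0.66, edgeR adjusted p = 0.713). The part of the 3 lists in the Csf1r difference was not tested. All 16 rod and cone genes were detected in the analysed cells, at 1098 to 6753 CPM at day 0, 333 to 1223 at day 7 and 208 to 1141 at day 20, and their part in any result was not tested. All 13 monocyte and macrophage genes were detected as well, at 245 to 307, 832 to 1402 and 372 to 730 CPM. Lymphocyte genes (13 of 14 in the tables detected, Cd79a at 0) were at 18.4 to 98.9, 101 to 636 and 75.5 to 258 CPM, and neutrophil genes (6 of 7, Ly6g at 0) at 85.6 to 156, 30.2 to 245 and 50.3 to 157 CPM.

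Trem2 was at 1958, 1859 and 2092 CPM at day 0, at 1248, 1503 and 929 CPM at day 7 and at 1628, 1681 and 2039 CPM at day 20. In CPM, which lacks the TMM factors of the test, the day 7 libraries lay below all others, and day 20 overlapped day 0. The differences did not pass the test: −0.52 on the log2 scale at day 7 against day 0 (SE 0.25, 95% interval −1.04 to 0.01, adjusted p = 0.130), −0.17 at day 20 against day 0 and 0.34 at day 20 against day 7 (adjusted p = 0.516). For each Trem2 UMI there were 1.01 to 1.10 Csf1r UMIs in the day 0 libraries, 0.389 to 0.947 at day 7 and 0.741 to 0.969 at day 20, so the ranges of day 0 and the light-exposed days did not overlap.

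Tyrobp, the adapter of Trem2, was at 3584, 3280 and 3805 CPM at day 0, 3352, 3259 and 2397 CPM at day 7, and 2896, 3778 and 3852 CPM at day 20. Fcer1g, the adapter of the activating Fc receptors, was at 2400, 2301 and 2214 CPM at day 0, 2575, 2694 and 2250 CPM at day 7, and 3012, 2934 and 2215 CPM at day 20. The ranges of the days overlapped for both adapters in CPM, which lacks the TMM factors of the test. At day 7 against day 0 Tyrobp had a log2 difference of −0.10 (adjusted p = 0.787) and Fcer1g 0.26 (adjusted p = 0.410). Per Tyrobp UMI, the libraries held 0.556 to 0.622 Csf1r UMIs at day 0, 0.162 to 0.367 at day 7 and 0.383 to 0.544 at day 20. Csf1r was therefore lower relative to this adapter in each library after light than in any before it.

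The activating receptor Fcgr3 was at 896, 1249 and 942 CPM at day 0, 694, 747 and 929 CPM at day 7, and 910, 869 and 881 CPM at day 20. The high-affinity receptor Fcgr1 was at 135, 167 and 196 CPM at day 0, 170, 151 and 636 CPM at day 7, and 243, 195 and 352 CPM at day 20. The 636 CPM came from the smallest library, and the ranges overlapped for both genes between day 7 and day 0. Neither passed the test at day 7 against day 0, with log2 differences of −0.30 for Fcgr3 (adjusted p = 0.411) and 0.64 for Fcgr1 (adjusted p = 0.330). The inhibitory receptor Fcgr2b was at 215, 255 and 184 CPM at day 0, 90.5, 80.7 and 147 CPM at day 7, and 89.7, 151 and 176 CPM at day 20. Day 0 lay above both other days. At day 7 it fell by 1.10 on the log2 scale (SE 0.38, 95% interval −1.91 to −0.28, edgeR adjusted p = 0.0465). Its day 20 to day 0 difference was −0.72 (adjusted p = 0.342). The day 7 call rests on 99 UMIs at day 0 and 35 at day 7. It missed the threshold when any library but day 7 replicate 3 was left out. In the deposited counts the difference was −0.36 (edgeR adjusted p = 0.404). Fcgr2b UMIs per Fcgr3 UMI were 0.195 to 0.240 at day 0, 0.108 to 0.158 at day 7 and 0.0986 to 0.2 at day 20, with the 2 light-exposed days overlapping each other and day 20 also overlapping day 0.

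Syk, the kinase that both adapters recruit, had 24 UMIs over the 728 cells (10, 8 and 6 at days 0, 7 and 20) and was too sparse to be tested.

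**Figure D2:**
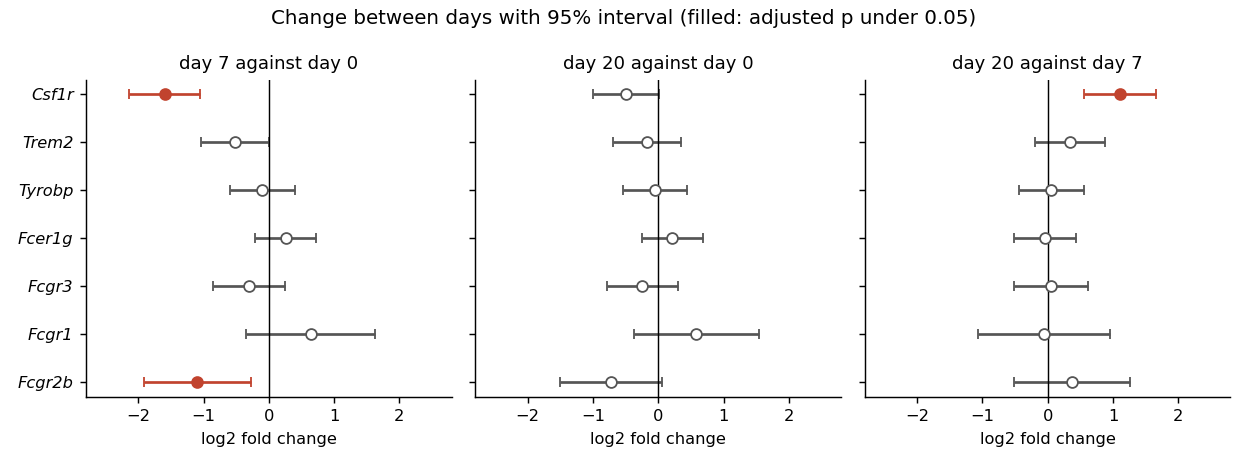
Log2 difference between days from edgeR (x axis) for the 7 tested genes, with points for estimates and bars for 95% intervals, in the comparisons of day 7 with day 0, day 20 with day 0 and day 20 with day 7. Csf1r is called at −1.59 and 1.11 and Fcgr2b at −1.10; all other values miss the adjusted threshold.

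Genes of the same pathways were counted from lists. Among proteins that act downstream of the ITAM adapters, 6 of 17 were abundant enough to be tested, and 2 were lower at day 7 than at day 0 and 0 higher, beside 16.6% and 10.3% of all genes tested. Lat2, a membrane scaffold for ITAM signals, fell by 0.96 on the log2 scale (SE 0.32, adjusted p = 0.0385). Another list was compiled as inhibitory receptors and phosphatases, and whether each of its genes inhibits in mouse cells was not tested. In it, 4 of 7 tested (17 listed) were lower and 0 higher, beside the same 16.6% and 10.3%. These were Inpp5d, the lipid phosphatase SHIP1 (−1.80, SE 0.48, adjusted p = 0.0122), Sirpa, the receptor for CD47 (−1.03, SE 0.33, adjusted p = 0.0324), the collagen receptor Lair1 (−1.05, SE 0.35, adjusted p = 0.0360) and the sialic acid receptor Cd33 (−1.28, SE 0.43, adjusted p = 0.0399). Of Lat2 and these 4 genes, DESeq2 called Inpp5d alone at day 7. Neither tool called a gene of these lists at day 20 against day 0 (0 called). There 0 of 6 and 3 of 7, respectively, had an unadjusted edgeR p under 0.05, beside 223 of all 1333 genes.

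Of the other receptors that pair with Tyrobp or Fcer1g, 2 of 21 were tested and Siglech was called. It was at 601, 729 and 379 CPM at day 0, at 60.3, 90.8 and 0 CPM at day 7, and at 436, 353 and 252 CPM at day 20. Siglech was lower at day 7 than at day 0 (−3.00, SE 0.42, adjusted p = 0.000104) and higher at day 20 than at day 7 (2.27, SE 0.43, adjusted p = 0.00768). It is also a gene of the microglial list. Fcrls, an Fc receptor-like gene of microglia and the only tested gene of 8 other Fc receptor genes, went the other way. It was at 85.9, 98.9 and 73.4 CPM at day 0, 468, 444 and 538 at day 7, and 385, 340 and 881 at day 20. All 6 later libraries were above day 0, with differences of 2.54 at day 7 (SE 0.39, adjusted p = 0.000215) and 2.47 at day 20 (SE 0.39, adjusted p = 0.00234). Fcgr4, a further activating receptor of this family, had 29 UMIs in all and was not tested.

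In the CSF1 receptor axis, 9 of 16 listed genes were tested, and 3 were lower and 0 higher at day 7 than at day 0, beside 16.6% and 10.3% of all genes. They included the myeloid transcription factors Cebpa (−1.67, SE 0.34, adjusted p = 0.00239) and Runx1 (−1.80, SE 0.61, adjusted p = 0.0379). Cebpa was at 368, 448 and 453 CPM at day 0 and at 136, 101 and 97.8 CPM at day 7. Of Cebpa and Runx1, DESeq2 called Cebpa alone at day 7. Neither tool called any of the 9 (0) at day 20 against day 0, with 2 at an unadjusted edgeR p under 0.05, beside 223 of all 1333 genes. Among the ligands, sheddases and neighbours of Trem2, 5 of 12 were tested, and 3 were higher and 1 (Cd33) lower at day 7, beside 10.3% and 16.6% of all genes. Apoe, a lipoprotein that Trem2 binds, was at 8555, 2660 and 7695 CPM at day 0, 78467, 91922 and 124590 at day 7, and 47622, 35447 and 90451 at day 20. It was higher at day 7 (4.09, SE 0.44, adjusted p = 2.2e-05) and day 20 (3.18, SE 0.42, adjusted p = 0.00110) than at day 0. Ms4a7, a membrane protein of macrophages, was higher at day 7 (5.47, SE 0.57, adjusted p = 1.9e-05) and day 20 (4.14, SE 0.62, adjusted p = 0.00234), and Ms4a6c at day 7 (2.63, SE 0.48, adjusted p = 0.000891). Ms4a7 is in the myeloid list that selected the cells.

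The cells were split by the share of their UMIs in the 8 microglial transcripts, which include none of Trem2, Csf1r and the other genes followed here. Cells with at least 0.25% were called rich (342 cells, median 949.5 UMIs) and the others poor (386 cells, median 906.5). The split is a range, with 222 cells between 0.125% and 0.5%. A day 0 library held 83.6% ± 6.28 rich cells, a day 7 library 25.1% ± 8.92 and a day 20 library 40.7% ± 10.1 (SD, n = 3). Within the 7 libraries with 10 or more cells of each class, Csf1r, Fcgr3 and Trem2 were higher in rich than in poor cells, which was 3 of the 5 genes tested, beside 28.7% of all 460 genes tested, or 18.9% called higher. In the same contrast, 9 of the 11 immediate-early genes tested were higher and 4 of 4 MHC class II genes lower in rich cells. Their part in the differences was not tested.

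Csf1r was at 2178, 2105, 1480, 1987, 2372, 1987 and 2035 CPM in rich cells of day 0 replicates 1 and 2, day 7 replicates 1 and 2 and day 20 replicates 1, 2 and 3. In poor cells of the same libraries it was at 1454, 1277, 387, 293, 641, 714 and 997 CPM. Rich cells were higher in 7 of 7 libraries and the groups did not overlap. The difference was 1.62 on the log2 scale (SE 0.25, edgeR adjusted p = 0.00104). It was 1.59 in the deposited counts (edgeR adjusted p = 3.0e-08), where barcodes can repeat across libraries. Libraries that share barcodes are not independent, so the latter p cannot be read as stronger evidence. Day 7 replicate 3, left out with 6 rich cells, went the other way, with Csf1r at 429 CPM in rich (2 UMIs) and 1014 CPM in poor cells. Day 0 replicate 3, left out with 6 poor cells, was at 2190 CPM in rich and 313 CPM in poor cells (1 UMI). For Fcgr3 the means were 1223 ± 320 and 647 ± 157 CPM (7 of 7 libraries higher, 1.05, SE 0.27, adjusted p = 0.0160). The Fcgr3 call was lost without day 7 replicate 1 (edgeR adjusted p = 0.0569). It was kept in 3 of 5 other alternatives, with adjusted p (edgeR or DESeq2) up to 0.879. Trem2 was at 2109 ± 235 CPM in rich and 1428 ± 400 CPM in poor cells (6 of 7 libraries higher, 0.74, SE 0.19, adjusted p = 0.0131). Without day 20 replicate 1 the edgeR adjusted p of Trem2 was 0.0681. Its call was kept in 4 of 5 other alternatives, with adjusted p (edgeR or DESeq2) up to 0.993.

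The adapters did not pass this test. Fcer1g was at 2906 ± 616 CPM in rich and 2505 ± 272 CPM in poor cells (6 of 7 higher, 0.35, adjusted p = 0.0813), and Tyrobp at 3487 ± 873 and 3589 ± 946 CPM (3 of 7 higher, 0.09, adjusted p = 0.646). The low Fcgr1 and Fcgr2b counts were not tested. Fcgr1 was at 245 ± 102 CPM in rich and 171 ± 66.2 CPM in poor cells, and Fcgr2b at 170 ± 75.7 and 98.8 ± 33.2 CPM, each higher in rich cells of 6 of 7 libraries.

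**Figure D3:**
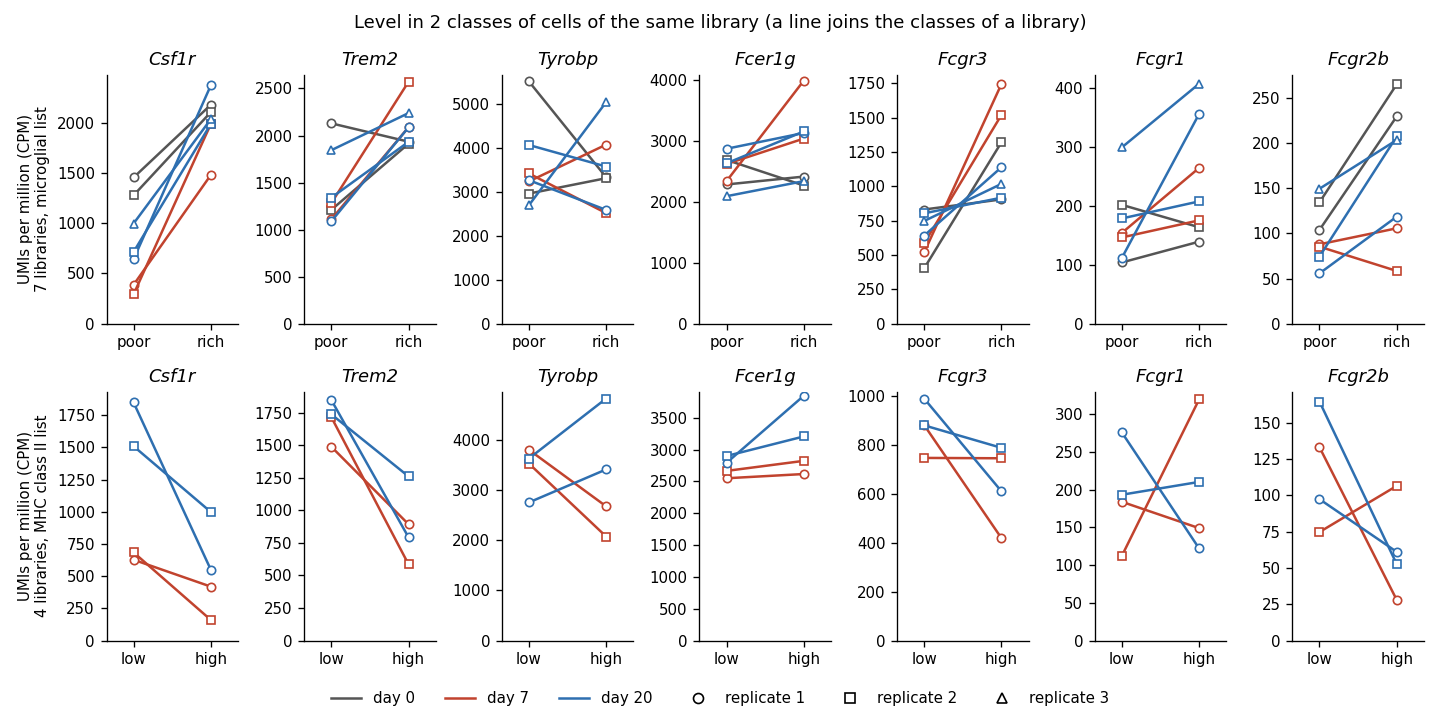
Levels in CPM (y axis) in the 2 classes of cells of each library, joined by a line per library, for the split by microglial transcripts (7 libraries) and by MHC class II transcripts (4 libraries). Csf1r lies higher in the rich cells of all 7 libraries, from 1480 to 2372 CPM against 293 to 1454, and lower in MHC class II-high than in MHC class II-low cells of all 4.

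A second split took cells with at least 0.5% of their UMIs in 4 MHC class II genes, 150 cells, against the 578 others, with 144 cells between 0.25% and 1%. Only day 7 replicates 1 and 2 and day 20 replicates 1 and 2 had 10 cells of each class. Trem2 and Csf1r were lower in MHC class II-high cells of all 4 libraries, although neither difference passed the adjusted threshold. Trem2 was at 883 ± 283 CPM in high and 1699 ± 151 CPM in low cells (SD, n = 4; −0.89, SE 0.22, edgeR adjusted p = 0.115). Csf1r was at 531 ± 351 and 1168 ± 607 CPM (−1.03, SE 0.31, adjusted p = 0.193). Neither edgeR nor DESeq2 called any (0 of 6 genes tested), beside 1.08% of all 738 genes called by edgeR. These 2 of the 6 had an unadjusted p under 0.05, as did 79 of the 738. Trem2 and Csf1r were each called in 0 of 4 fits without 1 library. Each was called in 2 of 5 other alternatives, including the deposited counts. In the deposited counts, Trem2 (−0.89, edgeR adjusted p = 3.6e-06) and Csf1r (−1.08, adjusted p = 5.0e-06) were lower in high cells. Fcer1g (0.59, edgeR adjusted p = 6.4e-05) and Fcgr1 (1.05, adjusted p = 0.000381) were higher there. Barcodes can repeat across libraries in those counts, so the libraries are not independent and these p-values cannot be read as stronger evidence. Fcer1g was at 3122 ± 540 CPM in high and 2725 ± 152 CPM in low cells in the main counts (4 of 4 higher, 0.21, adjusted p = 0.682). Fcgr3 was at 641 ± 166 and 874 ± 99.3 CPM (0 of 4 higher, −0.48, adjusted p = 0.593).

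With both splits combined and all libraries pooled, Csf1r was at 2106 CPM in the 325 rich, MHC class II-low cells (Poisson 95% interval 1992 to 2226, counting error only). It was at 548 CPM (468 to 637) in the 253 poor, low cells and at 553 CPM (449 to 675) in the 133 poor, high cells. Among poor cells, the Csf1r intervals of MHC class II-low and -high cells overlapped. Trem2 was at 2013 CPM (1901 to 2130), 1447 CPM (1316 to 1587) and 833 CPM (703 to 980) in these 3 classes. Its level in poor cells was lower where MHC class II transcripts were high, with intervals that did not meet, although the libraries hold these classes in different proportions. Of the MHC class II-high cells, 8, 94 and 48 were from days 0, 7 and 20, so class and day cannot be told apart in these pooled values. The intervals leave out the spread between libraries and are not a test. Only 17 cells were both rich and high.

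Within each class the days were compared again. In rich cells Csf1r was at 2158 ± 46.1 CPM at day 0 (n = 3), at 1480 and 1987 CPM in the 2 day 7 libraries with 10 such cells, and at 2131 ± 210 CPM at day 20 (n = 3). The log2 difference between day 7 and day 0 was −0.34 (SE 0.25, 95% interval −0.87 to 0.19, adjusted p = 0.445), compared with −1.59 over all cells. In poor cells, Csf1r was at 1454 and 1277 CPM in 2 day 0 libraries, 565 ± 392 CPM at day 7 and 784 ± 188 CPM at day 20 (n = 3 each). Day 7 differed from day 0 by −1.09 in poor cells (SE 0.66, −2.59 to 0.40, adjusted p = 0.713). The 2 day 0 libraries held only 22 and 15 poor cells, and the 3 day 7 libraries 157, 55 and 11. Whether poor cells are of the same kind on each day was not tested. The difference of the day effect between rich and poor cells was not tested. In rich cells Fcgr3 was at 1047 ± 237 CPM at day 0, at 1744 and 1519 CPM at day 7 and at 1024 ± 111 CPM at day 20. The log2 difference between day 7 and day 0 was 0.64 there (unadjusted p = 0.041 and adjusted p = 0.191 by edgeR), and −0.30 over all cells. Fcer1g in rich cells was at 2415, 2269 and 2203 CPM at day 0 and at 3990 and 3039 CPM at day 7, with day 7 above day 0 (0.63, SE 0.24, unadjusted p = 0.0221 and adjusted p = 0.146 by edgeR). At day 20 it was at 2876 ± 464 CPM. Trem2 in rich cells was at 1996 ± 125, 2330 ± 342 (n = 2) and 2086 ± 153 CPM on the 3 days, with all ranges overlapping those of day 0.

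**Figure D4:**
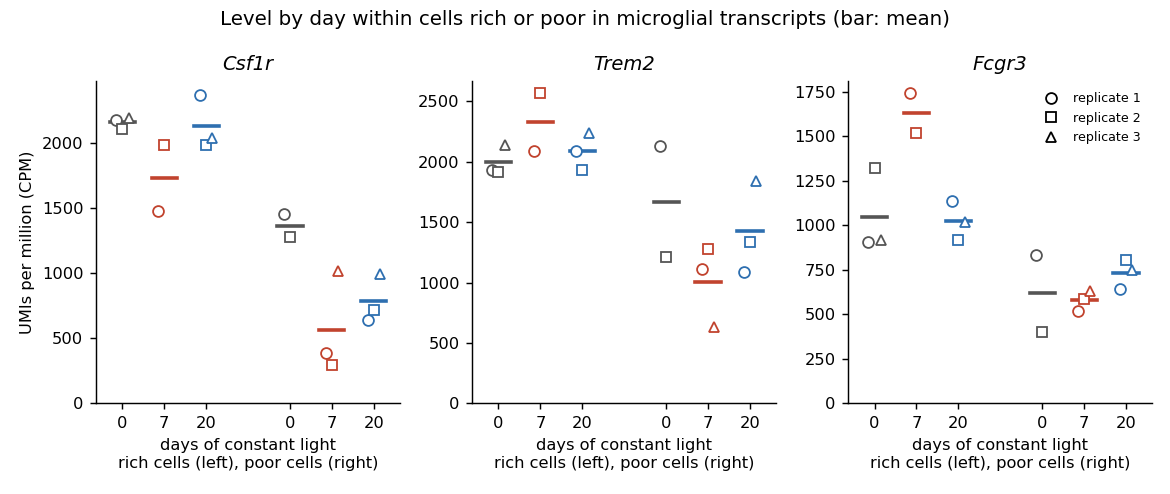
Level in CPM (y axis) by day in cells rich (at least 0.25% of UMIs) and poor in microglial transcripts; points are libraries with at least 10 cells of the class and bars are their means. Rich cells at day 7 have Csf1r at 1480 and 1987 CPM, while poor cells have 293 to 1014 CPM.

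Shares of cells with a UMI were compared after each cell was thinned to 500 UMIs, which left 206, 250 and 150 cells of days 0, 7 and 20 and dropped 45, 30 and 47 shallower ones. A Csf1r UMI was found in 60.3%, 67.0% and 62.2% of cells of the day 0 libraries. In the day 7 libraries the shares were 22.2%, 16.4% and 25%, and in the day 20 libraries 40.4%, 35.5% and 48.1%. The ranges of the 3 days did not overlap. Days 7 and 20 together were 31.9 percentage points below day 0 (two-sided exact permutation test over libraries, p = 0.0119, the smallest that 3 libraries against 6 can give, for 1 of 8 genes compared). The deposited counts gave −18.0 points (exact permutation p = 0.0119), and day 20 then stood 1.48 points above day 7, compared with 20.2 points in the main counts. Without thinning, 53.4% of all 728 cells had a Csf1r UMI. For Trem2 the shares were 55.9% ± 6.39 at day 0, 45.7% ± 3.82 at day 7 and 41.6% ± 8.01 at day 20, a difference of −12.3 points (exact permutation p = 0.0476). This p exceeded 0.05 in 8 of the 9 cases with 1 library left out, and the difference was −3.76 points in the deposited counts (exact permutation p = 0.357).

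The other 6 genes gave exact permutation p-values from 0.107 (Fcgr2b) upward. Shares were tested for these 8 genes only, so how many of all genes would give such p-values is not known. Fcgr2b differed by −3.23 points, by −4.57 points with cells thinned to 300 UMIs (exact permutation p = 0.0476) and by −10.1 points without thinning (p = 0.0119). Fcgr3 differed by −5.89 points (exact permutation p = 0.202) and by −8.05 without thinning (p = 0.0476). Tyrobp was found in 81.0% ± 2.79, 65.4% ± 13.6 and 77.5% ± 7.62 of thinned cells at the 3 days and Fcer1g in 71.7% ± 6.01, 65.2% ± 6.16 and 59.4% ± 19.4. Fcgr3 was found in 37.9%, 33.5% and 30.5% on average, Fcgr1 in 6.70%, 6.61% and 9.70%, and Fcgr2b in 9.57%, 6.52% and 6.16%. The 91 barcodes left out as not myeloid, with a median of 1327 UMIs before thinning compared with 1071 in the 606 analysed cells of this depth, gave the background. In these a UMI was found for Tyrobp in 26.4%, Fcer1g in 15.4%, Trem2 in 12.1%, Csf1r in 8.79%, Fcgr3 in 3.30% and Fcgr2b in 1.10%. Fcgr1 was found in 0 of 91, which allows a share of up to 3.30%. Each of these 7 genes was thus found more often in the analysed cells. The left-out barcodes were set apart by their myeloid transcripts, so this is a description and not an independent test. Syk, at 0.495% of analysed cells and 1.10% of the left-out barcodes, did not exceed its background.

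**Figure D5:**
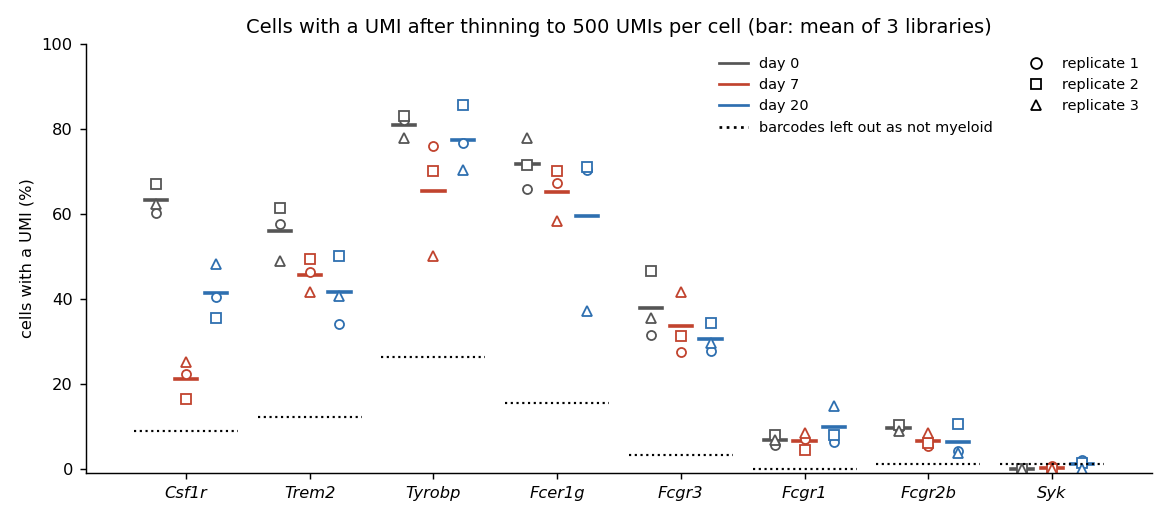
Percent of cells with at least 1 UMI (y axis) after thinning to 500 UMIs, per library (points) with the mean of each day, and the share in barcodes left out as not myeloid. Csf1r runs from 60.3% to 67.0% at day 0 and from 16.4% to 25% at day 7, compared with 8.79% in the left-out barcodes.

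In the 606 thinned cells, 91.7% had a UMI of either adapter and 54.0% of both, while 2.81% had none of the 8 genes. Of cells with a Trem2 UMI, 80.0% also had its adapter Tyrobp, which 77.7% of all thinned cells had. Fcer1g was found in 68.5% of cells with Fcgr3 and in 81.4% of the 43 cells with Fcgr1, compared with 68.0% of all. Of the 45 cells with inhibitory Fcgr2b, 48.9% also had activating Fcgr3, compared with 33.0% of all. These shares are descriptions over cells that share libraries.

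Genes outside the 8 whose counts ran most alike with each gene across cells of a library were found by the mean Pearson correlation over the 8 libraries with 30 or more cells, among 1154 genes. Depth per cell and library are shared by all points, and medians over all genes were 0.019 to 0.053. Csf1r ran with Grn (progranulin, 0.366) and Trf (transferrin, 0.304). Trem2 was most like Ctsd (cathepsin D, 0.282), Ctsz (cathepsin Z, 0.269) and Grn (0.242). Fcer1g also had Ctsd first (0.224), followed by Cst3 (0.213) and C1qa (0.212), and Tyrobp had Cst3 (0.217), B2m (0.210) and Gm10076 (0.188). Outside the 8, the activating receptor Fcgr3 was most like Gpr34 (a microglial lipid receptor, 0.218), Lpcat2 (0.203) and Trf (0.198), while Fcgr1 ran with Cd83 (0.268) and Socs3 (0.241). Fcgr2b ran with Ccl4 (a chemokine, 0.213), Rgs2 (0.211) and Cd14 (0.210). Among the genes followed here, the highest value was between Csf1r and Fcgr3 (0.235), and that between Csf1r and Tyrobp was −0.01. All these values were weak.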

How the data were processed

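The authors aligned and counted the reads with Cell Ranger (version not given in the sources used here) to mm10, per the labels, and deposited raw counts of UMIs per gene and barcode for 9 libraries; 0 columns were left unused. Each barcode was kept in the library with its highest UMI total. Barcodes needed 200 detected genes, under 10% mitochondrial UMIs, and more UMIs of a myeloid list than of any other cell type list. No doublet caller was run. Counts were summed per library, or per library and class of cells, and tested with edgeR 4.0.16 (quasi-likelihood, TMM, filterByExpr, library as a block between classes) in R 4.3.3, with Benjamini-Hochberg adjustment over all genes at 0.05. The 3 libraries of a day were its replicates; sums of 20443 to 265207 UMIs limit the precision for low genes. DESeq2 1.42.0 was an alternative. Shares of cells were compared with exact permutation tests over libraries. The edgeR script was tested on simulated data. Genes named outside the 8 are those of the pathway lists that passed the threshold, plus those of the 3 most alike per gene; some genes that met these rules are not reported here. The 8 genes and all lists were chosen with earlier results of these data known. Intervals and limits of counts cover counting error only. Clec7a, Cd300c2 and several T and B cell receptor genes were not analysed here.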

Additional observations from a re-analysis of the deposited data

Results flagged for a closer look

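Tyrobp, the adapter of Trem2, lay on opposite sides of the MHC class II split at day 7 and day 20 in replicates 1 and 2. In day 7 replicates 1 and 2 it was at 2680 and 2076 CPM in MHC class II-high cells and at 3810 and 3535 CPM in low cells. In day 20 replicates 1 and 2 it was at 3417 and 4834 CPM in high and 2758 and 3635 CPM in low cells. In these libraries the log2 difference between high and low cells was larger by 1.00 at day 20 than at day 7. Day 20 replicate 3, left out with 8 high cells, went the other way, at 2894 CPM in high and 4221 CPM in low cells. Day 7 replicate 3, left out with 7 high cells, was at 1974 and 2904 CPM, respectively. The difference between the days was not tested, and only 2 libraries a day had 10 or more cells of each class.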

How the results depend on the processing

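Csf1r at day 7 against day 0 was called in all 9 fits without 1 library and in 12 of 15 other alternatives; at day 20 against day 7 it was called in 5 of 9 and 7 of 15. Fcgr2b at day 7 was called in 1 of 9 (without day 7 replicate 3) and 2 of 13 others, with an adjusted p of 0.0960 by DESeq2. In cells rich against poor in microglial transcripts, Csf1r was called in all 12 alternatives, Trem2 in 10 and Fcgr3 in 9. Of 700 values recomputed for single genes, 574 kept direction and side of the threshold, 49 lost and 13 gained a call, and 64 changed sign. Cells summed as rich, poor, MHC class II-low or low in immediate-early UMIs were chosen as alternatives after seeing the data. Where a value moved, the cause was not tested.

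Replicate numbers were not taken as pairs in the main tests. Deviations of same-numbered libraries correlated at −0.05 to 0.19, and those of different-numbered libraries at −0.19 to 0.10. Such weak values from 3 libraries a day cannot exclude a pairing. With replicate number as a block, 357, 51 and 66 genes were called in the 3 comparisons of days, compared with 358, 43 and 67 without it, and Fcgr2b at day 7 was at −1.04 (adjusted p = 0.0779).

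Genes called at day 7 against day 0 (358) numbered 77 in the deposited counts, 183 without the myeloid selection, 95 with cells thinned to 500 UMIs, 139 without cells over 3 times the median UMIs, 84 in rich cells, 0 in poor cells and 75 in cells with under 2% immediate-early UMIs, and 194 to 539 without 1 library. For day 20 against day 0 (43) they numbered 1 in the deposited counts, 14 in rich, 0 in poor and 20 in low immediate-early cells, and 22 to 47 without 1 library. For day 20 against day 7 (67) they numbered 33 with only the 6 libraries compared, 0 in the deposited counts, 12 without the myeloid selection, 18 thinned, 11 without high-UMI cells, 6 in rich, 0 in poor, 114 in MHC class II-low and 15 in low immediate-early cells, and 15 to 104 without 1 library. Between MHC class II classes (8) they numbered 15 by DESeq2, 34 with no filter on low counts, 450 in the deposited counts and 4 to 9 without 1 library. Between rich and poor cells (132) they numbered 73 with no filter, 42 thinned, 681 in the deposited counts and 78 to 221 without 1 library. Of the 8 shares, 2 had an exact p under 0.05, with 1 in the deposited counts, 3 with cells thinned to 300 UMIs (Csf1r, Trem2, Fcgr2b), 3 without thinning (Csf1r, Fcgr3, Fcgr2b) and 1 to 2 without 1 library. Shares of other genes were not tested, so these counts have no value over all genes beside them and are not a result about the 8 as a set.

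These values changed sign, and none of their genes was called in the main counts (log2). At day 7 against day 0, Trem2 was 0.21 in rich cells; Tyrobp 0.063 in deposited counts, 0.062 without the myeloid selection and −0.20 to 0.13 without 1 library; Fcer1g −0.15 thinned, −0.21 without high-UMI cells, −0.059 in MHC class II-low and −0.0018 in low immediate-early cells; Fcgr3 0.64 in rich and 0.13 in poor cells; Fcgr1 −0.038 in MHC class II-low cells. At day 20 against day 0, Trem2 was 0.071 without the myeloid selection and 0.014 in low immediate-early cells, Tyrobp 0.018 for barcodes at least 3 times the second library, 0.064 at 100 genes, 0.040 at 5% mitochondrial UMIs, 0.21 without the myeloid selection, 0.0072 in rich cells and −0.12 to 0.16 without 1 library, Fcer1g −0.20 thinned and Fcgr3 0.43 in poor cells. At day 20 against day 7, Trem2 was −0.021 deposited and −0.22 in rich cells, and Tyrobp −0.091 deposited and −0.065 to 0.21 without 1 library. Fcer1g was 0.0028 with no filter, 0.048 with 6 libraries, 0.035 at 3 times the second library, 0.020 at 100 genes, 0.047 without the myeloid selection, 0.22 without high-UMI cells, 0.21 in MHC class II-low, 0.062 in low immediate-early cells and −0.087 to 0.15 without 1 library. Fcgr3 was −0.028 deposited, −0.025 at 3 times the second library, −0.062 thinned, −0.75 in rich, −0.082 in MHC class II-low cells and −0.040 to 0.16 without 1 library. Fcgr1 was 0.0027 with 6 libraries, 0.12 deposited, 0.56 at 3 times the second library, 0.020 without the myeloid selection, 0.30 in rich, 0.56 in MHC class II-low cells and −0.44 to 0.46 without 1 library.

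Between MHC class II classes, Tyrobp was −0.33 to 0.10 without 1 library, Fcer1g −0.29 with no filter and Fcgr1 −0.39 with no filter and −0.30 to 0.33 without 1 library. Between rich and poor cells, Tyrobp was −0.16 with no filter, −0.12 deposited and −0.028 to 0.23 without 1 library, and Fcer1g −0.19 deposited (adjusted p = 0.0492). In shares, Fcgr1 differed by −1.23 points without thinning and −0.024 deposited, and Syk by −0.52 points without thinning. Fcgr1 and Fcgr2b were too low to be tested with thinned cells and in poor cells.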
